A study of Homo sapiens with 27 samples.

Results

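K562 cells with a short hairpin RNA (shRNA) against PARN were compared with control K562 cells by small RNA sequencing, 3 libraries against 3, in a series of 27 libraries. The members were all mature miRNAs with an entry in the count tables of both groups, which gave 1292 miRNAs of the 1756 listed in either table. K562 is a human chronic myeloid leukaemia (CML) line with erythroid features, and both groups were wild-type at USB1, the 3' to 5' exonuclease that the series is about. The control libraries are labelled Control and the knockdown libraries Control_shPARN, and no other agent, time point or dose is given. The other 2 K562 groups, 3 libraries each, were USB1 knockout (KO) cells without and with the PARN shRNA, and the remaining 15 libraries were from human embryonic stem cells (hESCs). The knockout cells were grown from single clones picked for loss of USB1 protein. The labels do not say whether the control cells carried a non-targeting hairpin, so an effect of losing PARN and an effect of introducing a hairpin cannot be told apart. PARN mRNA is not captured by small RNA libraries, and the depth of the knockdown was not analysed here.

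PARN is a poly(A)-specific 3' exonuclease that removes adenosines from the ends of RNAs. Mature miRNAs can receive 3' adenosines from the non-canonical poly(A) polymerases PAPD5 and PAPD7, and deadenylases such as PARN and USB1 can take them off again. A miRNA recognises its targets mainly through its seed, bases 2 to 8 from the 5' end, and each hairpin precursor yields a 5p and a 3p arm, of which one is usually more abundant. The files give abundance only: tails on the 3' end were not counted in them.

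Of the miRNAs that changed, the sequences below are those that carry the comparison, with the seed in capitals (mature sequences from RefSeq, GRCh38.p14, 5' to 3'). The first set is the miRNAs that passed the test, of which miR-21-3p and miR-425-5p are named only.
miR-144-5p: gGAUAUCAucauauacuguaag
miR-708-3p: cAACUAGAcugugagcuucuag
miR-21-5p: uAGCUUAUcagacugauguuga
miR-17-5p: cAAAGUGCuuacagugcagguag
miR-19a-3p: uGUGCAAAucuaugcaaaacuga
miR-135b-5p: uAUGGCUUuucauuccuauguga
miR-135b-3p: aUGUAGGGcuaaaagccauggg
miR-139-5p: uCUACAGUgcacgugucuccagu
miR-452-3p: cUCAUCUGcaaagaaguaagug
miR-6503-3p: gGGACUAGgaugcagaccucc
miR-4745-5p: uGAGUGGGgcucccgggacggcg

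The second set is shown because these miRNAs share a seed with miR-17-5p or miR-19a-3p, or come from the same hairpin as a called miRNA, and did not pass the test.
miR-20a-5p: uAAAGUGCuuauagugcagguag
miR-106a-5p: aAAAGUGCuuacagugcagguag
miR-93-5p: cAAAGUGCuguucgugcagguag
miR-19b-3p: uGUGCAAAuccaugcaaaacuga
miR-144-3p: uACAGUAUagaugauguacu
miR-452-5p: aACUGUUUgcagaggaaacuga

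The 6 libraries held between 6287087 and 13183152 miRNA counts each. Members took at least 99.9% of the counts of each library. A test was possible for 881 members, those listed in all 4 K562 tables that also passed a filter on low counts. Of the other 411 members, 212 were missing from one of the knockout tables and 199 were under the filter, and 395 had at most 20 counts in each of the 6 libraries. The study calls its miRNA libraries of wild-type and USB1 KO K562 cells biological replicates. For the shRNA groups neither the labels nor the methods used here say whether cultures were separate. A p-value for a single miRNA reflects how far all 12 K562 libraries, the KO groups included, scatter within their groups. That scatter may be technical. The columns of the control table are headed WT, a name that wild-type hESC libraries of the series also carry as a title. The labels tie this table to the control K562 samples as a group, so the numbers 1 to 3 of control libraries only name its columns. Control libraries 1 and 2 stood apart in the miR-302 family, whose members are abundant in hESCs. miR-302b-3p had 4323, 3005 and 1 counts in control libraries 1, 2 and 3, and miR-302a-5p had 6927, 4616 and 0, against 1, 0 and 0 with the PARN shRNA. The miR-302b-3p counts in libraries 1 and 2 are 0.391% and 0.429% of its level in wild-type hESC libraries. The tests of single miRNAs were therefore also made without those 2 libraries.

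Of the other marker lists, 9 K562 markers were listed in both tables, and their summed level ran from 105179 to 113591 CPM (counts per 1000000 of the unscaled library total) in the controls and from 96446 to 96751 with the shRNA. One of them, miR-155-5p, was at or near 0 in all 6 libraries. The summed level of 4 fibroblast markers was 1612, 1095 and 1338 CPM in controls and 468, 325 and 412 with the shRNA. miR-143-3p alone was at 1472, 917 and 1139 CPM in controls and at 327, 154 and 268 with the shRNA. For 4 epithelial markers it was 65.7 to 99.95 against 40.5 to 51.6, and for 6 neural, muscle and liver markers 310 to 626 against 239 to 298, with miR-206 at 76.0 in control library 2 and at most 3.73 in the other 5. On these unscaled totals all 4 marker sums were lower with the shRNA. Scaled by the trimmed mean of M-values, as the levels of single miRNAs are below, the K562 sum ran from 100448 to 106092 in controls and from 105490 to 111921 with the shRNA, and the neural, muscle and liver sum from 313 to 560 against 277 to 325. Both then overlapped between the groups, and 2 of the 3 shRNA libraries were above all controls in the K562 sum. Most of that sum was miR-92a-3p, at a scaled mean of 84868 CPM in controls and 83084 with the shRNA. Within it miR-17-5p and miR-142-3p were higher with the shRNA (log2 changes of 0.87 and 0.50). Lower were miR-144-5p (-1.56), miR-144-3p (-1.61), miR-451a (-0.47), miR-223-3p (-0.28) and miR-486-5p (-0.22). The K562 sum thus does not show that its members held or rose as a set. The fibroblast sum (980 to 1470 against 377 to 522) and the epithelial sum (66.3 to 91.2 against 47.0 to 56.3) stayed lower. Most of the fibroblast sum was miR-143-3p, which was not called (log2 change -1.99 ± 1.27, edgeR adjusted p 0.592). miR-145-5p (0.16) and miR-199a-3p (-0.04) changed little, and miR-214-3p was too rare to test. The fibroblast sum thus does not show that its members fell as a set. Most of the epithelial sum was miR-200c-3p (-0.32, not called). The part of these markers in the results was not tested.

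PARN knockdown changed 13 of 881 miRNAs in control cells at an adjusted p under 0.05 (edgeR quasi-likelihood test, Benjamini-Hochberg over all 881), which is 1.48% of those tested. The erythroid miRNA miR-144-5p and the rare miR-708-3p were lower. Both arms of miR-21 and of miR-135b, miR-17-5p and miR-19a-3p of the miR-17-92 cluster, miR-425-5p, miR-452-3p, miR-139-5p, miR-6503-3p and miR-4745-5p were higher. The 11 higher miRNAs are 1.25% of those tested and the 2 lower ones are 0.227%. The knockdown libraries did not overlap the control libraries for any of the 13, a pattern that 22.5% of all tested miRNAs showed. The median log2 change of all 881 was -0.03 and the median absolute change 0.31.

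**Figure D1:**
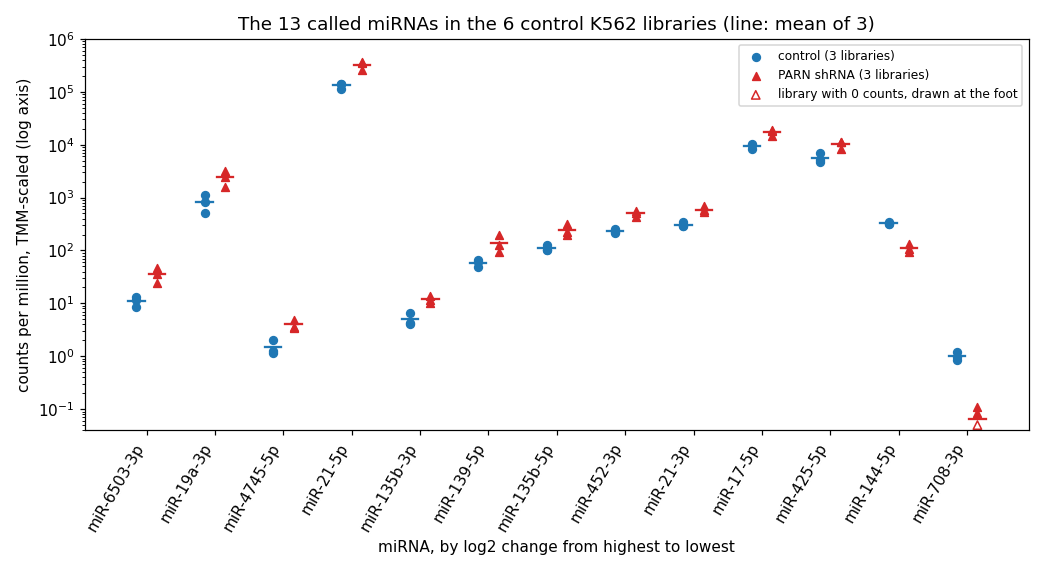
Level of each of the 13 called miRNAs in each library, in CPM scaled by the trimmed mean of M-values (log axis), for 3 control libraries (circles) and 3 PARN shRNA libraries (triangles), with a line at each mean. In each of the 13 the 2 sets of points do not overlap, and miR-708-3p sits at or under 0.112 in the shRNA libraries.

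miR-144-5p, from the hairpin that shares a transcript with the erythroid miR-451a, gave the lowest adjusted p. Its level was 320, 346 and 315 CPM (from here on scaled by the trimmed mean of M-values) in control libraries 1 to 3 and 93.9, 105 and 134 in knockdown libraries 1 to 3. All 3 knockdown libraries lay far below the lowest control. It fell 2.94-fold, a log2 change of -1.56 ± 0.20 (SE) with an adjusted p of 0.0017 by edgeR. The call held when any 1 of the 6 libraries was left out, with adjusted p from 0.0026 to 0.0313. Without control libraries 1 and 2 the log2 change was -1.49, and wild-type hESCs held 1.22 CPM of it (unscaled).

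The other arm of this hairpin, miR-144-3p, had 57.0, 76.99 and 43.0 CPM in controls and 16.02, 20.6 and 21.3 with the shRNA. These groups did not overlap either, and the log2 change was -1.61 ± 0.38 with an edgeR adjusted p of 0.060, so it was not called. MIR144 lies on chromosome 17 from 28861533 to 28861618, minus strand, and overlaps an exon of a long non-coding RNA. The 3 other erythroid miRNAs were not called: miR-451a had a log2 change of -0.47 ± 0.18, miR-486-5p of -0.22 ± 0.15 and miR-486-3p of -0.40 ± 0.22. All 5 members of the erythroid list had negative changes, with a median of -0.47 beside -0.03 over all miRNAs. Of all 881 tested, 421 had a change above 0. The 5 include both arms of miR-144 and of miR-486, so they are not independent.

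miR-708-3p was near the detection limit. It had 13, 6 and 10 counts in the control libraries and 1, 0 and 1 with the shRNA, a control-to-knockdown ratio of 18.6 per library total (exact 95% interval 4.70 to 161, counting error only). The fitted log2 change was -3.68 ± 0.73 with an edgeR adjusted p of 0.0239, and it depends on the prior count at such levels. Its other arm, miR-708-5p, was listed in the control table only, at 12, 13 and 15 counts. miR-708-3p was at 58.1 CPM (unscaled) in wild-type hESCs. At the miR-302b-3p ratio that level gives 0.227 and 0.249 CPM (unscaled) in control libraries 1 and 2. The scaled levels of miR-708-3p there were 1.196 and 0.854, and scaling divides unscaled levels of these libraries by about 1.10 and 1.12. Without those 2 libraries the log2 change of miR-708-3p was -3.60. The call was lost without control library 1 or 2 or shRNA library 1 or 2, with adjusted p up to 0.116.

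miR-21-5p was the called miRNA with the most counts. Widely known as an oncogenic miRNA, it is made from a hairpin on chromosome 17 (59841266 to 59841337, plus strand) that overlaps an exon and a UTR of VMP1. It stood at 141627, 113114 and 139751 CPM in controls and at 358279, 342398 and 262789 CPM with the shRNA. The lowest knockdown library was well above the highest control. The rise was 2.44-fold, a log2 change of 1.29 ± 0.21 with an edgeR adjusted p of 0.0132. It took 14.02 ± 1.45% of the member counts in controls and 28.6 ± 4.07% with the shRNA (SD, n = 3 each), against 34.2 ± 2.24% and 24.3 ± 5.05% for miR-148a-3p, the most abundant miRNA of the controls. miR-21-5p was above miR-148a-3p in knockdown libraries 1 (32.1% against 18.7%) and 2 (29.5% against 25.9%) and below it in library 3 (24.1% against 28.4%). The call was lost only without control library 2, where the adjusted p was 0.0645.

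Its less abundant arm, miR-21-3p, rose as well. It was at 296, 348 and 284 CPM in controls and 575, 684 and 523 CPM with the shRNA, again without overlap. The log2 change was 0.94 ± 0.20 with an edgeR adjusted p of 0.0298, and it passed only without shRNA library 3 among the 6 left-out fits (adjusted p up to 0.129 in the others). Among the tested miRNAs with a sequence used here, only miR-590-5p shared the miR-21-5p seed AGCUUAU. miR-590-5p had a log2 change of -1.37 and was not called.

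miR-17-5p and miR-19a-3p are made from neighbouring hairpins of the MIR17HG transcript on chromosome 13 (91350605 to 91350688 and 91350891 to 91350972, plus strand), the polycistron known as miR-17-92. miR-17-5p, which is known to target cell cycle regulators, was at 10293, 8237 and 9683 CPM in controls and 18370, 18834 and 14298 CPM with the shRNA. It rose 1.83-fold (log2 0.87 ± 0.15, edgeR adjusted p 0.0132). The call was lost only without control library 2, at 0.0645.

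miR-19a-3p was at 836, 504 and 1130 CPM in controls and 3154, 2499 and 1606 CPM with the shRNA. The spread within both groups was wide, and the groups did not overlap. The log2 change was 1.55 ± 0.32 with an edgeR adjusted p of 0.0298. It passed only without control library 3 or shRNA library 3, and was between 0.0877 and 0.116 without any other library. Without control libraries 1 and 2 its log2 change was 1.10.

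The rest of the cluster gave smaller values. miR-17-3p had a log2 change of 0.63 ± 0.17, miR-18a-5p of 0.63 ± 0.21 and miR-20a-5p of 0.54 ± 0.16, with edgeR adjusted p of 0.086, 0.186 and 0.127. miR-19b-3p, which has the seed of miR-19a-3p, had 0.26 ± 0.20, and miR-92a-3p, from the last hairpin, had -0.03 ± 0.13. Both are also made from the miR-106a-363 cluster on chromosome X. Thus members cut from the same transcript ranged from -0.03 to 1.55, and only 2 of 12 tested products were called. miR-92a-3p was at 83244, 83536 and 87824 CPM in controls and 81232, 84981 and 83040 CPM with the shRNA, and the groups overlapped.

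Across the miR-17-92 cluster and its paralogs, 2 of 13 members were called, both higher, where 1.25% of all tested miRNAs were called higher, and the median log2 change was 0.51 beside -0.03 over all. Without control library 2, or without control libraries 1 and 2, none of the 13 was called, and the medians were 0.41 and 0.47. Among tested miRNAs with a sequence used here, the 5 others with the miR-17-5p seed AAAGUGC ranged from -0.05 to 0.68, 4 above 0 and none called. The highest, miR-106a-5p, had a log2 change of 0.68 ± 0.18 and an edgeR adjusted p of 0.0705. Its sequence is close to that of miR-17-5p, so the split of reads between them is uncertain. The lowest in the list was miR-363-3p, at 46.2, 54.4 and 8.504 CPM in controls and 4.49, 3.78 and 10.3 CPM with the shRNA. Control libraries 1 and 2 were high, and control library 3 lay among the knockdown libraries. At the miR-302b-3p ratio the hESC level of miR-363-3p gives 36.5 and 40.0 CPM (unscaled) in libraries 1 and 2. Scaling divides unscaled levels of these libraries by about 1.10 and 1.12. The log2 change of miR-363-3p, -2.55 ± 0.60, was not called (edgeR adjusted p 0.0643).

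**Figure D2:**
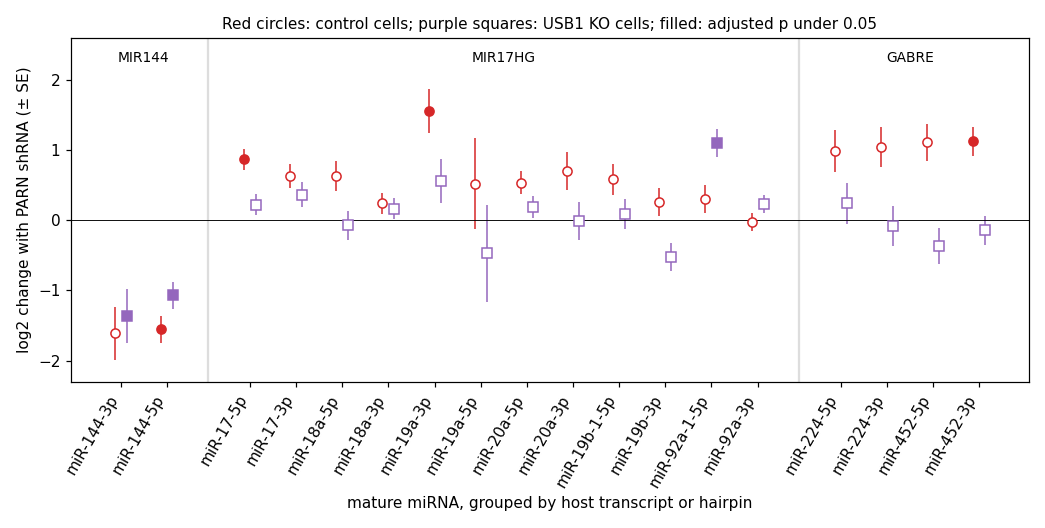
Log2 change with the PARN shRNA (± SE) of the mature miRNAs of MIR144, MIR17HG and the GABRE host gene, in control cells (red circles) and in USB1 KO cells (purple squares), filled where the adjusted p was under 0.05. Both MIR144 arms were below 0 in both genotypes, whereas the 4 GABRE miRNAs lay between 0.99 and 1.12 in control cells and between -0.37 and 0.24 in KO cells.

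miR-452 and miR-224 lie 1050 bases apart within GABRE on chromosome X (MIR452 from 151959628 to 151959712, MIR224 from 151958578 to 151958658, minus strand). miR-452-3p was at 214, 250 and 226 CPM in controls and 556, 520 and 425 CPM with the shRNA. All knockdown libraries were above all controls, with a log2 change of 1.12 ± 0.21 and an edgeR adjusted p of 0.0168. The call was lost without control library 1 (0.09999) or control library 2 (0.0645).

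The more abundant arm, miR-452-5p, was at 2330, 2068 and 2692 CPM in controls and 5944, 5184 and 4147 CPM with the shRNA. Its log2 change of 1.11 ± 0.26 missed the threshold at an edgeR adjusted p of 0.0507. miR-224-5p had a log2 change of 0.99 ± 0.29 and miR-224-3p of 1.04 ± 0.29, with adjusted p of 0.130 and 0.086. All 4 products of this host gene had values near 1, of which 1 was called.

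miR-135b is made from an intron shared by LEMD1 and BLACAT1 on chromosome 1 (205448302 to 205448398, minus strand). Its 5p arm was at 103, 103 and 126 CPM in controls and 311, 225 and 200 CPM with the shRNA. The log2 change was 1.15 ± 0.21 (edgeR adjusted p 0.0132), and the call was lost without control library 1 (0.0932) or 2 (0.0645). The 3p arm was at 4.05, 4.27 and 6.59 CPM against 13.8, 11.7 and 10.3 CPM, a log2 change of 1.26 ± 0.27 with an edgeR adjusted p of 0.0360. It passed only without control library 3 or shRNA library 3, with values up to 0.201 otherwise. miR-135a-5p, the one other with the seed AUGGCUU among tested miRNAs with a sequence used here, had a log2 change of 0.67 and was not called.

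miR-425-5p was at 5238, 4764 and 7062 CPM in controls and 10992, 11361 and 8373 CPM with the shRNA. It rose 1.80-fold (log2 0.85 ± 0.17, edgeR adjusted p 0.0298) and passed only without control library 3 or shRNA library 3, with values up to 0.187 otherwise. Its log2 change without control libraries 1 and 2 was 0.54. miR-139-5p, from an intron of PDE2A on chromosome 11 (72615063 to 72615130, minus strand), was at 65.8, 49.7 and 61.2 CPM against 129, 197 and 92.6 CPM. Its log2 change was 1.25 ± 0.27 with an edgeR adjusted p of 0.0360, and it passed only without shRNA library 3 (up to 0.207 otherwise). The spread among the knockdown libraries was wider than the gap between the groups.

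The last 2 were rare. miR-6503-3p, from an intron of MS4A4E on chromosome 11 (60209071 to 60209156), had the highest fitted rise of the called miRNAs, from 8.46, 12.95 and 11.8 CPM to 24.8, 36.5 and 46.4 CPM. The log2 change was 1.70 ± 0.30 (edgeR adjusted p 0.0132), and the call was lost without control library 1 (0.0932), control library 2 (0.0645) or shRNA library 2 (0.0580). miR-4745-5p, whose hairpin overlaps an exon of PTBP1 on chromosome 19 (804940 to 805001, plus strand), was at 2.02, 1.28 and 1.15 CPM against 4.92, 3.47 and 3.59 CPM. Its log2 change of 1.41 ± 0.32 was just inside the threshold (edgeR adjusted p 0.0480) and passed in none of the 6 left-out fits (0.0533 to 0.233).

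**Figure D3:**
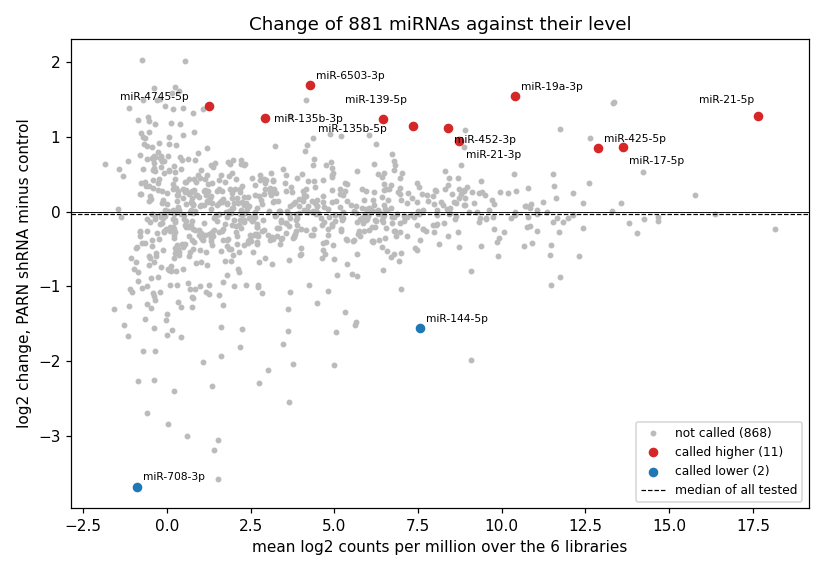
Log2 change with the PARN shRNA against the mean log2 CPM of the 6 libraries for the 881 miRNAs tested, with called miRNAs in red (11 higher) and blue (2 lower) and the median of -0.03 as a dashed line. Called miRNAs lie over the whole range of levels, and the widest changes of miRNAs that were not called lie at low levels.

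The number of calls rested on single libraries. Leaving out control library 1, 2 or 3 gave 3, 1 and 15 calls by edgeR, and leaving out shRNA library 1, 2 or 3 gave 6, 5 and 25. Without control libraries 1 and 2 together, a fit with 1 control library left, there were 0 calls and 56 miRNAs with an unadjusted p under 0.05, beside 118 (13.4%) with all libraries. All 13 kept their sign there, as they did in each left-out fit. DESeq2 on the same libraries called 36 miRNAs (4.09%), 24 higher and 12 lower, with all 13 among them. Scaling by library totals in place of the trimmed mean moved the median of all miRNAs to -0.29 and gave 8 higher and 17 lower calls in place of 11 and 2, and relative to that median the 13 had log2 changes from 0.88 to 1.73 and of -1.53 and -3.63.

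Both arms of a hairpin tended to carry the same sign where one was called. Among 338 hairpins with both arms listed, 199 had both arms tested, and 9 had a called arm. In all 9 the other arm had the same sign, which 64.3% of the 199 showed. The more abundant arm was called in 8 of the 199 (7 higher and 1 lower) and the less abundant arm in 3, all higher. Both arms were called for miR-21 and miR-135b. The median log2 change was -0.02 over the more abundant arms and 0.03 over the less abundant ones.

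Sequences from RefSeq were used for 777 of the 881 tested miRNAs, with a median length of 22 nt and a GC content of 50.0%. The 9 higher ones with a sequence had a median length of 23 nt and 47.8% GC, and 3 ended in A (33.3%), against 20.2% of all 777. The median log2 change was -0.03 for miRNAs ending in A, -0.07 for C, 0.03 for G and -0.03 for U.

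At the level of whole libraries, 4 measures were compared by a two-sided exact permutation test, which cannot go below p = 0.1 with 3 against 3. All 4 separated the groups fully (exact p = 0.1 each, 0.1 after adjustment over the 4). The 10 most abundant miRNAs took 76.1 ± 0.64% of counts in controls and 77.6 ± 0.73% with the shRNA (SD, n = 3). The less abundant arms took 2.10 ± 0.15% against 1.73 ± 0.08% of the counts of hairpins with both arms listed. The mean mature length weighted by counts was 22.12 ± 0.05 nt against 22.20 ± 0.05 nt. miRNAs that end in A in their annotated sequence took 20.5 ± 1.93% against 36.0 ± 4.75% of the counts on members with a sequence used here. Those members held 93.0 to 94.7% of member counts in the 6 libraries.

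miR-21-5p itself ends in A. Without it, a choice made after seeing the data, miRNAs ending in A took 6.54 ± 0.55% in controls and 8.31 ± 1.45% with the shRNA (SD, n = 3). These are shares of the counts on members with a sequence used here. The share of the 10 most abundant was then 3.15 percentage points lower with the shRNA (73.7% against 70.5%) and the difference in the less abundant arms was 0.0326 points in the other direction. Without miR-148a-3p, the most abundant miRNA, the mean length no longer separated the groups (exact p = 0.3). The difference in the share of the 10 most abundant was then 6.56 percentage points in place of 1.45, and that of the less abundant arms -1.12 in place of -0.37. The annotated last base is not a tail, and no measure of untemplated bases is given by these counts.

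Among lists of related miRNAs few members passed the test. With 1.48% of all 881 miRNAs called, a list of 2 to 27 members would mostly hold none, so a count of 0 below does not set a list apart from other miRNAs. The 5 hematopoietic guide strands that the study followed (both miR-125 guides, miR-223-3p, miR-142-5p and miR-199a-3p) gave 0 calls of 5 by edgeR, with a median log2 change of -0.04 and a lowest adjusted p of 0.624. miR-142-5p, a blood cell miRNA, was at 549, 724 and 582 CPM in controls and 625, 658 and 573 CPM with the shRNA, with groups that overlapped. miR-223-3p, a myeloid miRNA, was at 1411, 1045 and 1132 CPM against 895, 1155 and 909 CPM, and the groups overlapped. Their opposite strands also gave 0 of 6, from -2.84 for the rare miR-125b-1-3p to 0.50 ± 0.19 for miR-142-3p.

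For p53, whose mRNA PARN is known to affect through miRNAs, 0 of 7 tested p53-targeting miRNAs and 0 of 7 tested p53-induced miRNAs were called, beside 1.48% of all tested. The p53-targeting list had a median log2 change of -0.16 and a range of -0.98 to 0.23. Its most abundant member besides miR-92a-3p, miR-25-3p, had -0.16 ± 0.15. The p53-induced list had a median of 0.02 and a range of -1.23 to 0.90.

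The let-7 family, tumour suppressor miRNAs that are widely expressed, gave 0 of 9, with values between -0.39 and 0.45 and a median of 0.06. The miR-15/16 family gave 0 of 7 with a median of -0.13, the miR-30 family 0 of 5 with -0.07 and the miR-29 family 0 of 3 with 0.30. miR-221 and miR-222, known to act on the KIT receptor in erythroid cells, gave 0 calls of 4 arms with all values above 0 (0.24 to 0.91). Mirtrons, which are made by splicing without Drosha, gave 0 of 6 with a median of 0.16, and other Drosha-independent miRNAs gave 0 of 7 with a median of 0.12.

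The remaining lists had no call either, beside 1.48% of all tested miRNAs. Blood lineage miRNAs other than erythroid gave 0 of 7 with a median log2 change of -0.07, the miR-10 and miR-125 families 0 of 7 with 0.03, the miR-23, miR-27 and miR-24 clusters 0 of 5 with 0.18 and the miR-130 and miR-301 family 0 of 4 with -0.16. The miR-148 family gave 0 of 3 with -0.28, the miR-181 family 0 of 3 with 0.00, the miR-183 cluster 0 of 3 with -0.44 and the miR-424 cluster 0 of 6 with -0.16. Among wider marker lists than those summed above, 0 of 2 pluripotency, 0 of 4 epithelial, 0 of 7 fibroblast and 0 of 6 neural, muscle and liver markers were called. The medians of the epithelial list (-2.28) and of the neural, muscle and liver list (-1.56) were closer to 0 without control library 2. Without it they were -1.38 and -0.34, and without control libraries 1 and 2 they were -0.92 (5 members tested) and -0.26.

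The most abundant miRNAs of control cells, apart from miR-21-5p, were not called. miR-148a-3p was at 287783, 317741 and 357007 CPM in controls and 208578, 299855 and 309616 CPM with the shRNA, a log2 change of -0.23 ± 0.19. The groups overlapped, and shRNA library 1 was the lowest. miR-146b-5p had a log2 change of 0.22 ± 0.23 and miR-151a-3p of -0.12 ± 0.15. One abundant miRNA with a large fitted change missed the threshold and is named after its values were seen: miR-7-5p was at 5989, 4076 and 9764 CPM in controls and 26410, 14007 and 13816 CPM with the shRNA (log2 1.45 ± 0.36, edgeR adjusted p 0.0705). miR-3529-3p had almost the same values, with a log2 change of 1.47 ± 0.35, and whether reads of the 2 can be told apart was not tested.

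Below the threshold on the lower side, miR-144-3p and miR-363-3p, given above, had edgeR adjusted p of 0.060 and 0.0643. Of the other miRNAs with a small unadjusted p there, miR-218-5p was at 1072, 1237 and 1151 CPM in controls and 757, 860 and 686 CPM with the shRNA (log2 -0.59 ± 0.15, edgeR adjusted p 0.0643). miR-202-5p was at 25.2, 39.1 and 29.2 CPM against 2.71, 5.82 and 14.2 CPM (log2 -2.05 ± 0.49, edgeR adjusted p 0.0643). Neither miR-218-5p nor miR-202-5p overlapped between the groups, and neither was called.

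**Figure D4:**
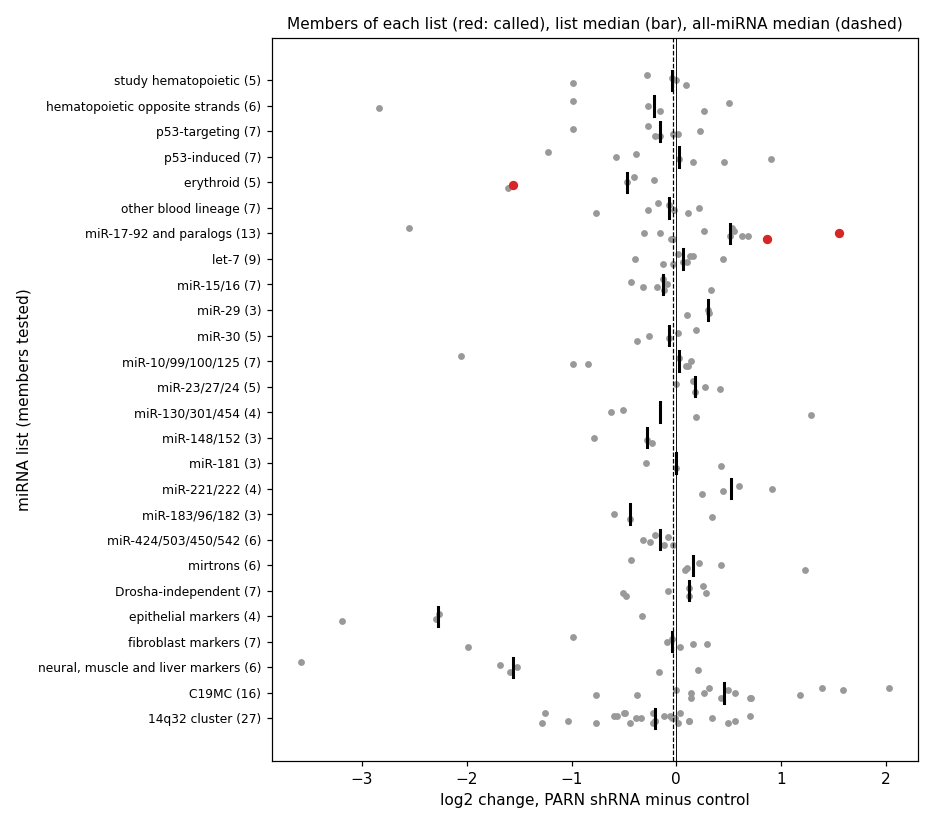
Log2 change with the PARN shRNA of each tested member of each list with at least 3 tested members (grey points, called members red), with a bar at the list's median and a dashed line at the median of all miRNAs. Called members appear only in the erythroid list and in miR-17-92 and its paralogs among the lists drawn, and the epithelial and the neural, muscle and liver marker lists have their medians at -2.28 and -1.56, which were -1.38 and -0.34 without control library 2.

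The large imprinted and primate-specific clusters had no called member in control cells. The 14q32 cluster (DLK1-DIO3 region) had 27 tested members of 55 listed, 0 called, with a median log2 change of -0.20. The C19MC cluster of chromosome 19 had 16 of 39 tested, 0 called and a median of 0.46 at low counts. miR-381-3p of 14q32 was at 213, 261 and 182.1 CPM in controls and 199, 221 and 141 CPM with the shRNA.

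PARN knockdown in USB1 KO cells was used to see where the response of control cells differed. Both groups are labelled shPARN, and whether the hairpin was the same is not stated. These comparisons share no library. In KO cells 130 miRNAs were called (14.8%), 80 higher and 50 lower, against 13 in control cells, and KO library 3 was the shallowest K562 library. The gap was smaller when each genotype was fitted on its own 6 libraries (counts in the last section). KO libraries 1 and 2 differed less than any other pair within a K562 group (chi-squared per degree of freedom 12.8 against 135 to 689). How this bears on the number of calls was not tested. Over the 881 miRNAs the log2 changes in the 2 genotypes had a Pearson r of 0.19 and a Spearman rho of 0.17, given as a description. Of the 13 miRNAs, 10 had the same sign in KO cells (55.5% of all miRNAs did), and miR-144-5p, miR-21-5p, miR-135b-3p and miR-4745-5p were called there too, in the same direction. These are 30.8% of the calls in control cells and 3.08% of those in KO cells. In KO cells miR-21-5p changed by 1.07 ± 0.21 and miR-144-5p by -1.07 ± 0.19 on the log2 scale.

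A test of the difference itself (the interaction in the same edgeR fit) called 16 miRNAs, 1.82% of those tested, 12 (1.36%) with a higher change in KO cells and 4 with a lower one. Among the 13, it called miR-135b-5p, miR-452-3p and miR-708-3p. miR-135b-5p was at 90.4, 98.3 and 73.8 CPM in KO cells and 77.8, 99.99 and 72.7 CPM in KO cells with the shRNA, and those groups overlapped (interaction -1.22 ± 0.29 on the log2 scale, edgeR adjusted p 0.04997). miR-452-3p was at 212, 209 and 130 CPM against 146, 206 and 148 CPM (interaction -1.27 ± 0.29, edgeR adjusted p 0.04997). For miR-21-5p the interaction was -0.22 ± 0.29 and for miR-144-5p 0.49 ± 0.27, with edgeR adjusted p of 0.736 and 0.374, and neither difference passed the test.

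The 14q32 miRNAs gave 6 of the 12 interactions on the higher side. miR-127-3p, a maternally expressed miRNA of that region, was at 101, 103 and 98.3 CPM in controls, 90.1, 96.8 and 73.0 CPM in control cells with the shRNA, 13.7, 17.0 and 22.3 CPM in KO cells and 104, 83.6 and 28.2 CPM in KO cells with the shRNA. It was thus near its control level in 2 of the 3 KO libraries with the shRNA and low in the third. Its interaction was 2.27 ± 0.51 (edgeR adjusted p 0.04997). miR-381-3p had 12.4, 18.2 and 19.9 CPM in KO cells and 146, 107 and 41.4 CPM in KO cells with the shRNA, with an interaction of 2.78 ± 0.53 (edgeR adjusted p 0.0335). Leaving out control library 1 or control library 2 ended all 16 interaction calls by edgeR, with 135 and 131 miRNAs at an unadjusted p under 0.05.

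**Figure D5:**
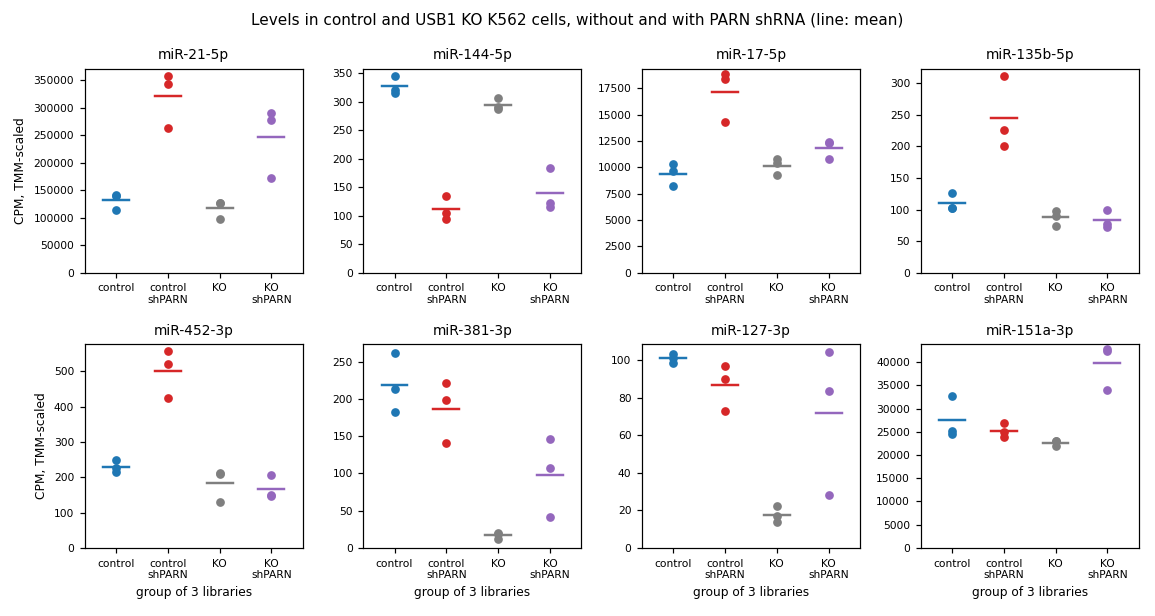
Level in CPM (linear axis from 0) of 8 miRNAs in 4 groups of 3 K562 libraries: control, control with PARN shRNA, USB1 KO and USB1 KO with PARN shRNA, with a line at each mean. miR-21-5p and miR-144-5p moved in the same direction in both genotypes, miR-135b-5p and miR-452-3p rose in control cells and their interaction passed the test, and miR-381-3p, miR-127-3p and miR-151a-3p rose in KO cells.

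Some miRNAs were listed in only one of the 2 tables and are outside the 1292. The control table alone listed 293, of which 277 had under 10 counts in each library and 5 reached 100 in any. These included miR-302a-3p, miR-302b-3p, miR-302c-3p and miR-302d-3p. The knockdown table alone listed 171, of which 168 had under 10 counts in each library, with at most 19 counts in total for any of them.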

How the data were processed

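Total RNA from K562 cells was made into small RNA libraries with a Lexogen kit. Per the labels and the study's methods, adaptors were trimmed with cutadapt 2.5 and the authors aligned reads to miRBase mature miRNAs with Bowtie2 2.2.9, allowing no mismatch in the seed region, and used SAMtools 1.3.1. The authors deposited 1 table per group, whose values are whole read counts of mature miRNAs without normalization, with no column left out of the K562 tables and of the wild-type hESC table. The tables of the other hESC groups and of the authors' comparisons were not used here.

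From the counts, 16 adaptor entries (0.010 to 0.030% of counts in the 6 libraries) were removed. A single edgeR 4.0.16 fit (R 4.3.3, quasi-likelihood, robust, trimmed mean of M-values, filterByExpr with a minimum count of 10 and minimum total of 15) took all 12 K562 libraries, 8 residual degrees of freedom, and the 1080 miRNAs listed in all 4 tables, of which 881 passed. Contrasts were the knockdown in control cells, in USB1 KO cells and their difference. DESeq2 1.42.0 was an alternative. The script was tested on simulated data. Library measures used an exact permutation test (scipy 1.17.1). Named miRNAs were the called ones, the study's hematopoietic miRNAs, up to 4 members of each of 28 lists, the 5 most abundant, the 5 smallest p on a side with under 5 calls, other arms, and interactions. miR-708-3p, miR-135b-3p and miR-4745-5p were under the level minimum of that rule (mean log2 CPM of 3) and are named as called. Members and lists were chosen with earlier results of these data known. Hairpin positions and host genes come from RefSeq GRCh38.p14 and GENCODE. Counting error sets the precision of rare miRNAs. Intervals cover counting error only. Alternatives were another tool, scaling, filter, block and set of libraries, and each library left out. Those without control libraries 1 and 2 and without miR-21-5p, the scaled marker sums and the list medians with libraries left out were chosen after seeing the data.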

Additional observations from a re-analysis of the deposited data

Results flagged for a closer look

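The response to the PARN shRNA differed between control and USB1 KO cells for 16 miRNAs by the interaction test (edgeR, adjusted p under 0.05). Values are KO change minus control change on the log2 scale. They were 3.40 for miR-654-3p, 2.72 for miR-379-5p, 2.78 for miR-381-3p, 2.82 for miR-493-3p and 2.27 for miR-127-3p, all of the 14q32 cluster, and 0.93 for miR-151a-3p. They were -1.27 for miR-452-3p, -1.22 for miR-135b-5p and -4.20 for miR-4420, which had at most 5.09 CPM in any of the 12 libraries. For miR-708-3p the value was 4.87, at 2 counts in all 3 control libraries with the shRNA.

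Signal of an hESC miRNA stood in control K562 libraries that was absent from the knockdown table. miR-302b-3p had 4323 counts in control library 1 and 3005 in control library 2, against 1 in control library 3. What brought it there was not tested.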

How the results depend on the processing

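For the knockdown in control cells, 13 calls became 36 with DESeq2, 25 with library totals, 21 with a CPM of at least 10, 30 and 27 when only the 6 libraries were fitted (the same miRNAs, or all listed in both tables), 1 to 25 with a library left out and 0 without control libraries 1 and 2. In KO cells, 130 became 55 with only 6 libraries and 38 to 139 with a library left out. The 16 interaction calls became 37 with DESeq2, 7 with another scaling (relative log expression or library totals), 1 with a CPM of at least 10, 0 to 27 with a library left out and 0 without control libraries 1 and 2 (80 at an unadjusted p under 0.05 in that edgeR fit, with no other tool run). In 7 of the 12 left-out fits there were 0 interaction calls, with 130 to 164 at an unadjusted p under 0.05. Fewer miRNAs or libraries enter the stricter filter and the left-out fits. For the other settings the cause was not tested. Same-numbered control and knockdown libraries had correlations of 0.00067, 0.0216 and -0.0924 in their deviations from the group means. Differently numbered ones ran from -0.151 to 0.168. Control numbers are only those of the column headings, so these values cannot show whether libraries were paired. With the replicate block there were 15 calls in control cells (11 shared), 102 in KO cells and 10 interactions. Without miR-21-5p the difference in the share of the 10 most abundant turned to -3.15 percentage points and that of the less abundant arms to 0.0326. Of 1825 values of 123 named miRNAs under alternatives, 1710 stayed on their side of the threshold without turning a called direction, 65 lost the call, 50 gained one and 0 turned direction with a call. Low counts limit rare miRNAs: miR-708-3p had at most 13 counts in a control library.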
